A study of Mus musculus with 2 samples.

Results

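WNT and bone morphogenetic protein (BMP) signalling genes were described in granulosa cells of mice without estrogen receptor beta (ERβ, encoded by Esr2) and of their heterozygous controls. A gene was a member when its symbol was Ctnnb1, Lef1, Tcf7, Tcf7l2, Axin1, Axin2, Apc, Lrp5, Lrp6, Frzb, Wif1, Nog, Chrd, Grem1 or Id1 to Id4, or began with Wnt and a digit, Fzd, Sfrp, Dkk, Dvl, Bmp and a digit, Bmpr or Smad. Bmp15 was left out. This gave 81 genes on 84 probes, among 20706 genes or unnamed transcripts on 20868 probes. The rule works on names, so it also took Bmp1, Bmp2k and Dkkl1, which encode a procollagen protease, a kinase and a dickkopf-like protein. They were kept apart from the ligand, receptor and other role groups.

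The series compared 2 pools of granulosa cell RNA. The ERβ-het pool came from C57/Bl6 Esr2+/- females and the ERβ-null pool from C57/Bl6 Esr2-/- females, all 23 to 25 days old. Both pools came from mice given PMSG, a gonadotropin that acts like follicle-stimulating hormone (FSH), for 48 h. The pools were hybridised together on 2 two-colour arrays of 60-mer oligonucleotides, with the null pool in Cy5 on array 1 and in Cy3 on array 2. Each pool is 1 biological sample of several animals, and the arrays repeat the same pair of RNAs. An SD after ± is therefore over 2 technical hybridisations, and no p-value was computed. In RNA from pooled cells, fewer cells of a type and less RNA per cell cannot be told apart.

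WNT proteins are secreted glycoproteins that bind Frizzled receptors with the co-receptors LRP5 and LRP6. Through Dishevelled this stops the Axin and APC complex from marking β-catenin for destruction, and β-catenin then acts with TCF and LEF factors on target genes. BMP ligands bind pairs of type I and type II receptor kinases, which phosphorylate SMAD1, SMAD5 and SMAD9. These enter the nucleus with SMAD4 and induce genes such as Id1 and Id3, while SMAD6 and SMAD7 inhibit the pathway. In granulosa cells β-catenin contributes to FSH-driven aromatase expression, and BMP receptors of type IB are known for their part in ovulation rate in sheep and in cumulus expansion in mice.

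Levels are log2 normalised intensities after background correction with an offset, and they are compared only between pools for the same probe. Ratios are log2 null over het, negative where the null pool was lower. A gene was called higher or lower when both arrays gave at least 1.2-fold the same way (0.26 log2 units) and its probe was well above background in at least 1 pool on both arrays. Of 81 members, 75 passed that background filter. They included 5 WNT ligand genes that were well above background on both arrays in only 1 pool (Wnt7b, Wnt8a, Wnt8b, Wnt9b and Wnt10a). Of the 6 that did not pass, Wnt3, Wnt5a, Dkk2 and Dkk4 stayed below the scanner software's background criterion in every channel. Bmp8b met it on 1 array in each pool, and Fzd6 on 1 array in the het pool alone. No fold is given for these 6.

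By this rule 5 of 75 members were lower in the null pool (6.67%) and 0 were higher. Over all 18521 genes passing the filter, 1.09% were called lower and 1.70% higher. The lower members were the BMP targets Id1 and Id3, the BMP ligand gene Bmp3, the secreted WNT antagonist Frzb and Dkkl1. No member reached a stricter rule that asks for a 2-fold mean and 1.5-fold on each array, which 0.0918% of all genes met as lower and 0.0378% as higher. With a further demand that the deposited error-model p of the spot be under 0.01 on both arrays, none of the 5 members stayed called. Under that demand 91 of the 18521 genes were called lower (0.491%). The median log2 ratio was -0.01 over the 75 members, -0.01 over the 47 WNT members and -0.01 over the 28 BMP members, against -0.0038 over all genes. On red over green ratios left unturned, which cancel a difference between genotypes and keep one between dyes, 0 members and 0.729% of all genes passed the 1.2-fold rule. Of the 75 members 63 lay within 0.2 log2 units of equality (84.0%), as did 91.6% of all genes. Across the 75 members, which are not independent replicates, the ratios of the arrays correlated with r = 0.44, against 0.32 across all genes.

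**Figure D1:**
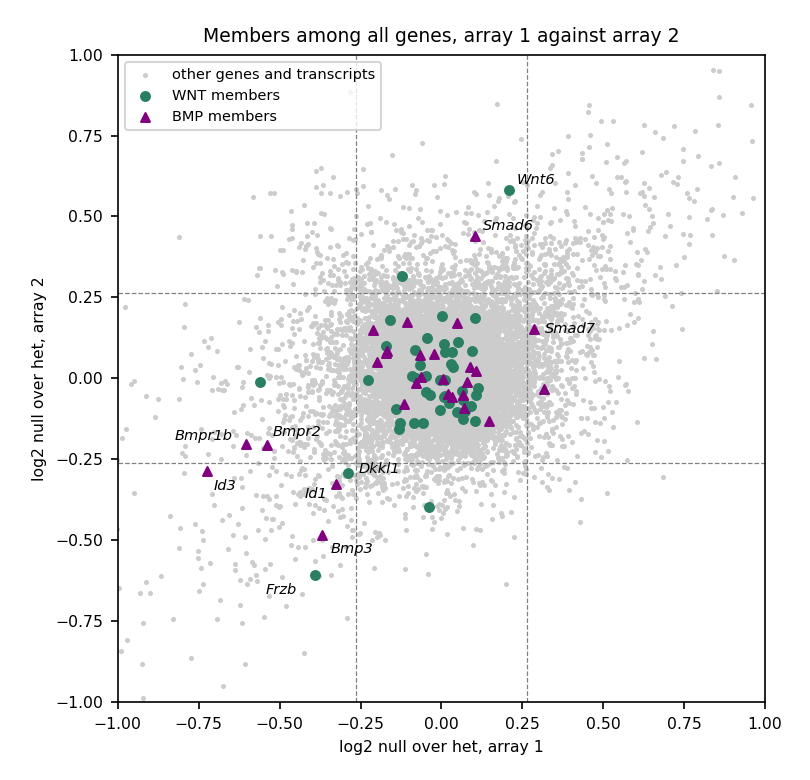
Log2 null over het ratio on array 1 (horizontal) against array 2 (vertical) for each gene passing the background filter. WNT members are circles, BMP members are triangles, other genes and transcripts are grey dots, and dashed lines mark 1.2-fold. Id1, Id3, Bmp3, Frzb and Dkkl1 lie past the lines at the lower left, no member lies past them at the upper right, and 52 genes lie outside the axes.

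Of the 4 ID genes, which are BMP targets, Id1 and Id3 were lower in the null pool. ID proteins are helix-loop-helix factors without a DNA-binding region that hold partner factors away from DNA. Id3 had a level of 10.16 in the het pool and 9.44 in the null pool on array 1, and 9.92 and 9.63 on array 2. The null pool was lower on both arrays, although the ratios differed in size. The log2 ratios were -0.72 and -0.29, with a mean of -0.51 ± 0.31, or 1.42-fold lower. Id1 had levels of 9.65 and 9.32 (het and null) on array 1 and of 9.63 and 9.31 on array 2. Both arrays gave the same difference for Id1, with a log2 ratio of -0.33 on each, or 1.25-fold lower. The scanner software's own ratios, which carry no offset, were -0.54 for Id3 and -0.37 for Id1. The probes of Id1 and Id3 were named from the wording of their descriptions (AK008264 and AK002820).

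The other ID genes were not called. Id2 had 7.77 and 7.75 (het and null) on array 1 and 7.66 and 7.74 on array 2, so the arrays disagreed in direction and the mean log2 ratio was 0.03 ± 0.07. Id4 had 7.24 and 7.26 on array 1 and 7.36 and 7.31 on array 2, with a mean of -0.01 ± 0.05. Its second, dimmer probe also gave -0.01.

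Id2 and Id3 encode closely related proteins but differed in their ratios. The letters before their starts are shown, with those of Frzb, the WNT member with the largest fall. No window was found for Id1, and whether the letters bear on the ratios was not tested. The sequences are the 250 bases upstream of the start in RefSeq on GRCm38.p6, read 5′ to 3′ on the gene's strand. Capitals mark GGCGCC, the core of the GC-rich SMAD element, and GTCTG or its complement CAGAC, which holds the SMAD box. The Id2 window is chr12:25096093-25096342 (minus strand), that of Id3 is chr4:136143572-136143821 (plus strand) and that of Frzb is chr2:80447397-80447646 (minus strand).
Id2: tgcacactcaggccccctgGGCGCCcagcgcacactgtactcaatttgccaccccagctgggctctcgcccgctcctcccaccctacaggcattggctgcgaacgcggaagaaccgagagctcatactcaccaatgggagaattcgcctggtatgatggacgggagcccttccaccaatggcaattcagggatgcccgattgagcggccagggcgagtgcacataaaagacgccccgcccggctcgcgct
Id3: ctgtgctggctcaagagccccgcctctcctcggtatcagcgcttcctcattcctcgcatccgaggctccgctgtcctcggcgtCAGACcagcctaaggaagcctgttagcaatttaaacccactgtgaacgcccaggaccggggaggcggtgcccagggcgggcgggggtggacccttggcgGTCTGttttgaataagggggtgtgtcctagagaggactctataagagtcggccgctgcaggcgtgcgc
Frzb: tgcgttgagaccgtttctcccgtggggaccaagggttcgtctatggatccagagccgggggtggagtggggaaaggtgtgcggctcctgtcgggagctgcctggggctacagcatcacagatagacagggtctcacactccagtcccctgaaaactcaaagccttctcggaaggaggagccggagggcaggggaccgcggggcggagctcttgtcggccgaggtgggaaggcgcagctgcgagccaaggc

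The Id3 window held CAGAC at bases -167 to -163 and GTCTG at -68 to -64 relative to the start, and no GGCGCC. The Id2 window held 1 GGCGCC, at -231 to -226, and the Frzb window held none of the motifs searched. Both strands were searched for GGCGCC, for the SMAD box GTCTG, for the TCF and LEF element (CTTTG and 2 bases that are each A or T), and for the estrogen response element GGTCANNNTGACC and its extended half-site AGGTCA, which can overlap it. RefSeq windows were found for 56 of the 81 members (69 windows). GGCGCC was in 24 of these 69 windows (34.8%), against 9.59% of all 32851 windows, and the member windows were richer in G and C (median 66.4% against 52.4%). GTCTG was in 37.7% of member windows and 42.2% of all, and the TCF and LEF element in 14.5% and 14.8%. AGGTCA was in 7.25% of member windows and 14.02% of all, and the full estrogen response element was in 0 of 69 and in 0.06% of all. A match describes letters and not a site in use.

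No BMP receptor gene was called, though Bmpr1b and Bmpr2 lay near the threshold. Bmpr1b encodes a type I BMP receptor. It had levels of 8.91 and 8.30 (het and null) on array 1 and of 8.63 and 8.43 on array 2. The ratio of -0.20 on array 2 missed the 1.2-fold rule, and the mean was -0.40 ± 0.28. Bmpr2, which encodes a type II receptor, had 8.21 and 7.67 on array 1 and 7.89 and 7.69 on array 2. Its ratios were -0.54 and -0.21 with a mean of -0.37 ± 0.24, so it was also lower on both arrays without passing the rule. Bmpr1a, the other type I receptor gene among the members, had 7.20 and 7.14 on array 1 and 7.01 and 7.02 on array 2. The arrays differed in sign, and its mean was -0.03 ± 0.05. With array 1 alone Bmpr1b and Bmpr2 would both be called lower, and with array 2 alone neither would.

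The inhibitory SMAD genes lay on the other side of equality. Smad6 and Smad7 are also in the list of BMP targets counted below, as are Id1 and Id3. Smad6 had 6.91 and 7.01 (het and null) on array 1 and 6.55 and 6.99 on array 2, with ratios of 0.10 and 0.44 and a mean of 0.27 ± 0.24. Smad7 had 7.13 and 7.42 on array 1 and 6.73 and 6.88 on array 2, with ratios of 0.29 and 0.15 and a mean of 0.22 ± 0.10. Each array gave the higher level in the null pool for both genes, and neither passed the rule. These probes are dim, and the scanner software's ratios were 0.58 for Smad6 and 0.46 for Smad7; with them Smad7 was called higher. The SMAD genes that carry the BMP signal lay near equality. Smad1 had 8.85 and 8.77 (het and null) on array 1 and 8.88 and 8.86 on array 2, with a mean of -0.05 ± 0.05. Smad5 had 6.59 and 6.43 on array 1 and 6.40 and 6.48 on array 2, with a mean of -0.04 ± 0.18. The arrays disagreed in sign for Smad5, and likewise for Smad9 (-0.01 ± 0.06). The shared partner gene Smad4 had 8.40 and 8.20 on array 1 and 8.20 and 8.25 on array 2, with a mean of -0.07 ± 0.18. Smad2 and Smad3 carry activin and TGF-β signals. Smad2 had 0.01 ± 0.20, and Smad3 had 0.14 ± 0.25 on its brighter probe and 0.02 ± 0.03 on the other.

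**Figure D2:**
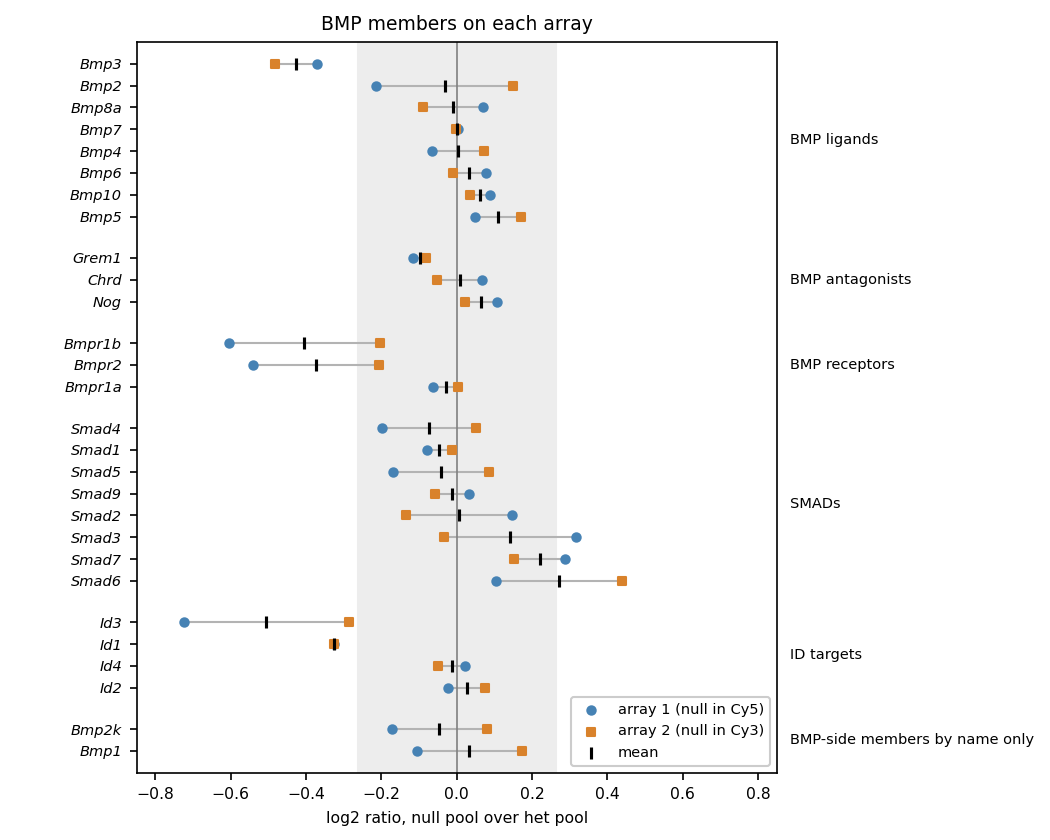
Log2 null over het ratio of each of the 28 BMP members passing the background filter, grouped by role, on array 1 (circles) and array 2 (squares), with the mean as a bar. The grey band spans 1.2-fold. Id1, Id3 and Bmp3 lie to the left of the band on both arrays, and Bmpr1b and Bmpr2 do so on array 1 alone.

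Of the 8 BMP ligand genes that passed the filter, only Bmp3 was called. Bmp3 encodes a BMP family protein that antagonises other BMPs in bone. Its probe (AK035393) was assigned by its description, which names the rat homolog BMP-3. It had 8.86 and 8.49 (het and null) on array 1 and 8.92 and 8.43 on array 2, so the null pool was lower by a similar amount on each. The ratios were -0.37 and -0.48, with a mean of -0.43 ± 0.08, or 1.34-fold lower. The other 7 ligand genes had means between -0.03 (Bmp2) and 0.11 (Bmp5). Bmp2, which granulosa cells make, had 7.53 and 7.31 on array 1 and 6.96 and 7.11 on array 2. Its ratios of -0.21 and 0.15 point in opposite directions. Bmp5 had 6.74 and 6.79 on array 1 and 6.69 and 6.86 on array 2, with a mean of 0.11 ± 0.09. Bmp6, known from oocytes, had 0.03 ± 0.06, and Bmp4 had 0.0021 ± 0.0975.

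None of the 3 secreted BMP antagonist genes, whose products keep ligands from their receptors, was called. Grem1 had 6.88 and 6.76 (het and null) on array 1 and 6.98 and 6.90 on array 2, with a mean of -0.10 ± 0.02. Nog had 7.08 and 7.19 on array 1 and 7.23 and 7.25 on array 2, with a mean of 0.06 ± 0.06. Grem1 was thus slightly lower and Nog slightly higher on both arrays, and Chrd had 0.01 ± 0.08 with opposite signs.

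On the WNT side the called pathway gene was Frzb, which encodes a secreted Frizzled-related protein that binds WNT ligands. Its levels were 7.84 and 7.45 (het and null) on array 1 and 7.75 and 7.14 on array 2. The ratios were -0.39 and -0.61, with a mean of -0.50 ± 0.15, or 1.41-fold lower, and the scanner software's ratio was -0.76. Dkkl1 had 7.70 and 7.41 on array 1 and 7.46 and 7.17 on array 2, with a ratio of -0.29 on each, or 1.22-fold lower. The other WNT antagonists passing the filter were not called. Dkk3 had -0.04 on array 1 and -0.40 on array 2. Sfrp4, known from luteinising granulosa cells, had 8.20 and 8.07 on array 1 and 8.39 and 8.25 on array 2, a similar difference on each (mean -0.13 ± 0.01). Wif1, which binds WNT ligands, had the highest mean of the antagonists at 0.0026 ± 0.125, from 7.17 and 7.26 on array 1 and 7.79 and 7.71 on array 2. Sfrp1, Sfrp2, Sfrp5 and Dkk1 had means between -0.04 and 0.0004.

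**Figure D3:**
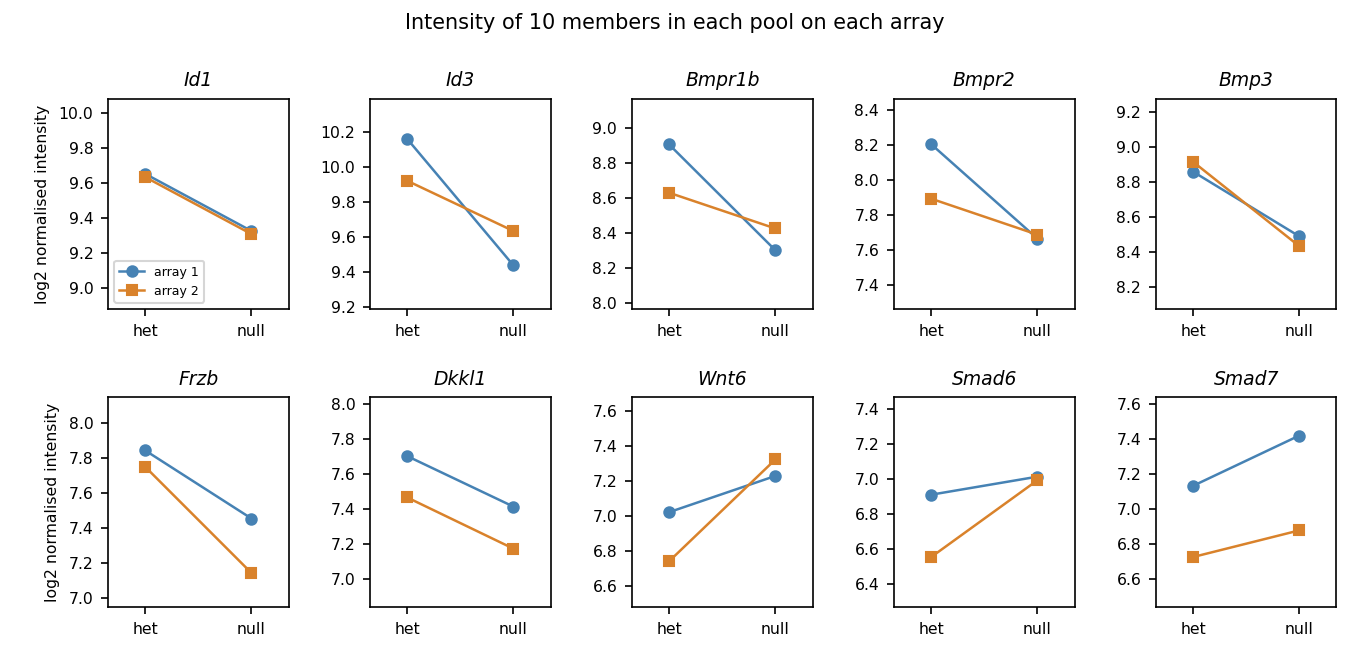
Log2 normalised intensity of 10 members in the het and null pools on array 1 (circles) and array 2 (squares). Each panel is centred on its own mean and all span the same range, so heights are not comparable between panels. Lines of Id1, Id3, Bmpr1b, Bmpr2, Bmp3, Frzb and Dkkl1 descend from het to null on both arrays, and those of Wnt6, Smad6 and Smad7 ascend.

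None of the 17 WNT ligand genes that passed the filter was called. Of the 17, 8 were positive and 3 negative on both arrays (47.1% and 17.6%), against 22.7% and 24.3% of all genes. Apart from Wnt6, the 8 had means of at most 0.10, and they include Wnt10a, which passed the filter through the null pool alone. Wnt6 came nearest to a call, with 7.02 and 7.23 (het and null) on array 1 and 6.74 and 7.32 on array 2. Its ratios were 0.21 and 0.58, with a mean of 0.39 ± 0.26, higher on both arrays but short of 1.2-fold on array 1. With the scanner software's ratios it had 0.67 and was called higher. Wnt4, which is needed for ovary development, was dim, with 6.60 and 6.65 on array 1 and 6.42 and 6.53 on array 2. Its mean was 0.08 ± 0.04. Wnt2, whose product is made by rodent granulosa cells, had 9.46 in both pools on array 1, and 9.89 (het) and 9.88 (null) on array 2, so the pools were nearly equal (mean -0.0053 ± 0.0005). The lowest ligand mean was that of Wnt9a, assigned by similarity, at -0.12 ± 0.16, from 6.99 and 6.77 on array 1 and 6.79 in both pools on array 2, and the ligand median was 0.04.

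Among the 11 receptor and co-receptor genes passing the filter none was called, and 4 were negative and 1 positive on both arrays, against 24.3% and 22.7% of all genes. Fzd2 had 7.53 and 6.97 (het and null) on array 1 and 7.23 and 7.22 on array 2, so its mean of -0.29 ± 0.39, the lowest of the group, rested on array 1. Fzd4, whose product is found in granulosa and luteal cells, had 7.84 and 7.71 on array 1 and 7.91 and 7.76 on array 2 (mean -0.14 ± 0.02). Fzd1 had 6.81 and 6.75 on array 1 and 6.69 and 6.55 on array 2 (mean -0.10 ± 0.06). Both were slightly lower in the null pool on each array. The co-receptor gene Lrp5 had 8.53 and 8.41 on array 1 and 8.00 and 8.32 on array 2, opposite directions, and Lrp6 had -0.01 ± 0.08. The remaining receptor genes (Fzd3, Fzd5, Fzd7, Fzd8, Fzd9 and Fzd10) had means between -0.05 and 0.06.

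The 10 cytoplasmic and nuclear WNT components all lay within 0.2 log2 units of equality. Ctnnb1, the β-catenin gene, was slightly higher on both arrays. It had 9.60 and 9.71 (het and null) on array 1 and 9.35 and 9.54 on array 2, with a mean of 0.14 ± 0.06. Under median centring its arrays disagreed in sign (0.53 and -0.33). Tcf7l2, a nuclear partner of β-catenin, had the lowest mean at -0.12 ± 0.03, from 6.54 and 6.40 on array 1 and 6.48 and 6.38 on array 2. Axin2, a widely used readout of β-catenin activity, had 6.61 in both pools on array 1 and 6.68 and 6.62 on array 2 (mean -0.03 ± 0.05). Lef1, another nuclear partner, had 6.55 and 6.66 on array 1 and 6.62 and 6.57 on array 2 (mean 0.03 ± 0.11). Neither Axin2 nor Lef1 kept its direction across the arrays. The Dishevelled genes Dvl1, Dvl2 and Dvl3 had means between -0.05 and -0.02, and Axin1, Apc and Tcf7 had means between -0.02 and 0.04.

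**Figure D4:**
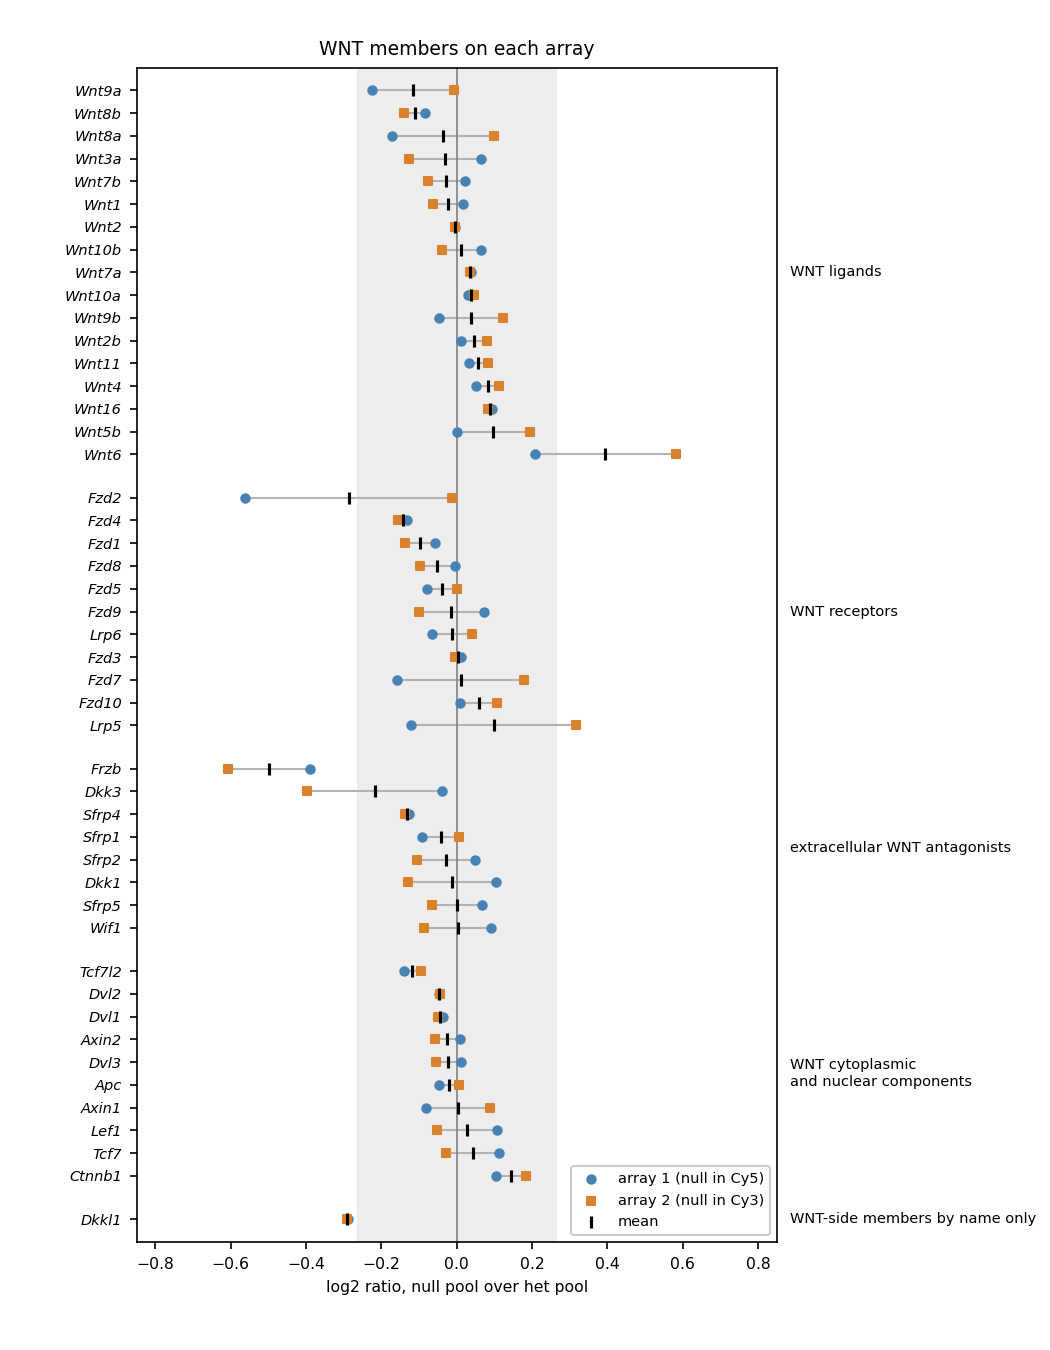
Log2 null over het ratio of each of the 47 WNT members passing the background filter, grouped by role, on array 1 (circles) and array 2 (squares), with the mean as a bar. The grey band spans 1.2-fold. Frzb and Dkkl1 lie to the left of the band on both arrays, and Wnt6 and Lrp5 lie to its right on array 2 alone.

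Other genes of both pathways were counted from lists of their components and targets. Over all genes passing the filter, 1.70% were called higher and 1.09% lower. None of the list counts was tested against those shares. Of 33 other WNT pathway genes passing the filter, 2 were higher, 1 was lower and the median ratio was -0.02. Celsr1, a cadherin of planar cell polarity, had ratios of 0.84 and 0.44 (mean 0.64 ± 0.28). Nkd1, a feedback inhibitor that binds Dishevelled, had 0.62 and 0.36 (mean 0.49 ± 0.18). The lower gene was Tle1, a corepressor of TCF factors, with -0.62 and -0.40 (mean -0.51 ± 0.15). Of 20 WNT target genes, 4 of them members, Myc (0.55 ± 0.03) and Nkd1 were higher, none was lower and the median was 0.01. Axin2, Lef1, Tcf7 and Dkk1, the members in that list, were not called.

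Among 25 other BMP pathway genes passing the filter, 2 were higher and 2 lower, beside 1.70% and 1.09% of all genes. The median was -0.01. Among the lower genes, Fst (follistatin, which binds activin and BMPs) had ratios of -1.20 and -0.54 (mean -0.87 ± 0.47). The higher genes were Bmper, which encodes a secreted BMP-binding protein (0.43 ± 0.08), and Amhr2, the receptor gene of anti-Müllerian hormone (0.35 ± 0.03). Of 20 BMP target genes, 8 of them members, Id1 and Id3 were lower and Hey1 was higher (0.33 ± 0.03), with a median of 0.05. The 8 members were Id1, Id2, Id3, Id4, Smad6, Smad7, Nog and Grem1. In that list 10 of 20 genes were positive and 3 negative on both arrays, against 22.7% and 24.3% of all genes. The 10 include Dlx3, which passed the filter through the null pool alone and had ratios of 0.08 and 0.0052. No listed BMP target other than Id1 and Id3 was called lower.

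Some granulosa markers and most oocyte markers differed between the pools beside these genes. Over all genes passing the filter, 1.09% were called lower and 1.70% higher, and 24.3% were negative and 22.7% positive on both arrays. Of 8 granulosa markers passing the filter, Cyp19a1, Inhba and Fst were lower and Amhr2 was higher, and all 8 met the background criterion in every channel. Of the 8, 5 were negative and 2 positive on both arrays, and 1 had opposite signs. The mean of this list therefore joins genes that went both ways. The mean log2 level of the granulosa list was 10.6 and 10.3 in the het pool and 9.88 and 10.1 in the null pool (array 1 and array 2). Of 10 oocyte markers on the array all but Figla passed the filter, and of these 9, 7 were higher and all 9 were positive on both arrays, with mean levels of 9.24 and 9.10 in the het pool and 9.78 and 9.59 in the null pool. Their part in the ratios of the members was not tested. Other lists had 1 gene called each: Hsd3b1 lower among 7 theca and interstitium markers, and Dcn, Cdh1 and Lyz2 higher among 5 stroma, 6 surface epithelium and 5 leukocyte markers. None of 4 endothelial and 2 erythroid markers was called. The Esr2 probe had 7.84 and 7.33 (het and null) on array 1 and 7.45 and 6.99 on array 2 (mean -0.48 ± 0.03). The het pool has 1 intact copy of Esr2, but the place of the probe in the disrupted gene is not known here. For that reason this value does not check the genotype labels.

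The share of spots well above background was 93.0% and 90.1% in the null pool and 87.2% and 95.1% in the het pool on arrays 1 and 2. The members were dim for the most part, with median intensities above local background between 52.7 and 147 scanner units, against an offset of 50 added in the correction. The offset pulls ratios of dim probes toward 0, so members were also read without it. With the scanner software's ratios 6 members were lower (Id1, Id3, Bmp3, Frzb, Dkkl1 and Wnt8b) and 2 higher (Wnt6 and Smad7), where 2.24% of all genes were called lower and 3.55% higher. With median centring in place of loess, Id3 was the only one of the 5 lower members that kept its call, Bmpr1b and Bmpr2 were also called lower, and Smad7 was called higher. Median centring called 0.73% of all genes lower and 0.72% higher, and left the ratios of the arrays correlated at -0.69 across genes. Under that centring Id1 had 0.09 on array 1 and -0.84 on array 2, with a mean of -0.38. The mean ratios of the 5 lower members were also negative with the scanner software's ratios, with offset 0 and without background subtraction. With array 1 alone 8 members were lower and 2 higher, where 4.76% of all genes were called lower and 4.58% higher.

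**Figure D5:**
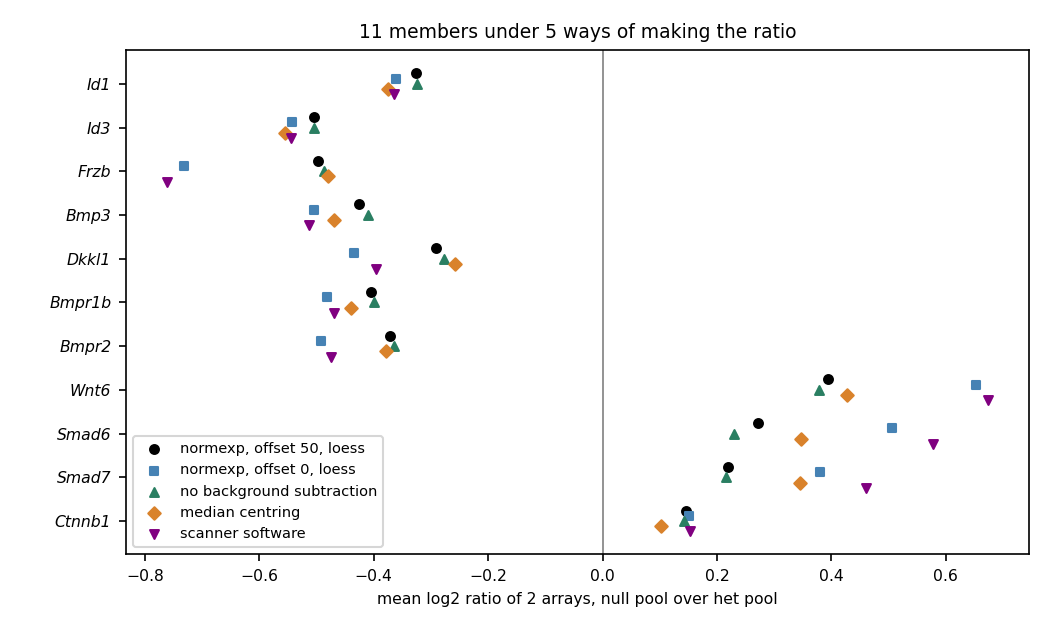
Mean log2 null over het ratio of 11 members under 5 ways of making the ratio from the same spots. The means of each gene lie on the same side of 0 in all 5, and Frzb, Wnt6, Smad6 and Smad7 lie farthest from 0 with normexp at offset 0 and with the scanner software's ratios.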

How the data were processed

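RNA of the 2 pools was labelled with Cy3 and Cy5 and hybridised to 2 dye-reversed arrays, per the labels' protocols. Per the file headers, Agilent Feature Extraction A.7.5.1 made the deposited spot and background intensities. The deposited LogRatio is log10 of red over green, and its deposited p-value is the error model's for 1 spot. The deposited series table holds log2 values within 0.001 of the scanner ratio for 99.8% of spots on each array; its columns are red over green, with medians of 0 and 0.0022, and whether they were centred is not stated.

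Mean intensities were corrected with normexp (offset 50) and normalised by loess within each array, control spots at weight 0, in R 4.3.3 with limma 3.58.1; Python 3.11.15 was used for the rest. Spots flagged as outliers (58 and 95) were left out, none of them of a member. The sign of the array 2 ratio was reversed to give null over het. The brightest of several probes stood for a gene. Levels were scaled between arrays (Aquantile). No member spot was saturated.

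Of the 84 member probes, 65 were named through their accession in RefSeq (GRCm38.p6), 4 by a symbol in the description, 10 by the gene's name there and 5 by its stated similarity to a gene (Wnt1, Wnt9a, Fzd10, Dkk4, Bmp3). The members, lists, 1.2-fold rule and rule for named genes were chosen with earlier results of these data known. Any member could be named, and up to 4 called genes of each other list; 1 such gene is not reported here. The script was tested on simulated data. The number of arrays limits the precision.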

Additional observations from a re-analysis of the deposited data

How the results depend on the processing

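With the scanner software's ratios or the series table's values, which are nearly the same ratios, 2 members were higher and 6 lower, and with no offset 2 and 7. Of all genes, 3.55% were higher and 2.24% lower with the scanner software's ratios, and 3.33% and 2.26% with no offset. Under median centring 1 member was higher (Smad7) and 3 lower (Id3, Bmpr1b and Bmpr2), against 0.72% and 0.73% of all genes. Id1, Bmp3, Frzb and Dkkl1 thus lost the call. Their means stayed negative, but Id1 had 0.09 on array 1; the cause was not tested. That setting left the ratios of the arrays correlated at -0.69 across genes, and the WNT median became 0.01. At 1.1-fold 2 members were higher (Smad7 and Wnt6) and 7 lower, against 4.81% and 2.88% of all genes. At 1.5-fold no member was called, against 0.20% of all genes higher and 0.27% lower. With the deposited error-model p under 0.01 required of each array, 0 members were lower, as were 0.491% of all genes. With 1 array alone 2 to 3 members were higher and 6 to 8 lower, and the BMP median lay between -0.0423 and -0.0066. Array 1 alone called 4.58% of all genes higher and 4.76% lower, and array 2 alone called 5.24% and 2.38%. Over all genes the counts of 314 higher and 201 lower became 657 and 415 with the scanner software's ratios. Without background subtraction, with both other background filters and with the mean over probes the same 5 members were lower and 0 higher. The filters and the probe mean leave the ratio of a gene with 1 probe as it is, so they say nothing of its stability. Over all alternatives Smad6 ranged from 0.10 to 0.58, Wnt6 from 0.21 to 0.67, Frzb from -0.76 to -0.39 and Id3 from -0.72 to -0.29, the ends nearest 0 coming from 1 array alone. Signal over background limits the 6 members for which no fold is given. No analysis across animals was possible because each genotype is 1 pool.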
